A study of Mus musculus with 8 samples.

Results

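The genes described here encode the proteins that store neurotransmitter in synaptic vesicles and release it: vesicle membrane proteins, synaptotagmins, SNARE proteins and their regulators, active zone scaffolds and the Rab3 GTPases. They were measured in mouse cerebellum and chosen by symbol alone, from the families Syt, Syngr, Sv2, Vamp, Stx, Stxbp, Cplx, Rims, Rab3 and Unc13 together with Syn1, Syn2, Syn3, Syp, Snap25, Bsn and Pclo. The rule found 80 loci with 77 symbols among 11763 loci that the authors list in any of 4 pairwise tables. Sv2b, Rims1 and Rims3 each have a pair of loci. The symbol rule also takes in 10 loci from Rab30 to Rab39, which share the first letters of Rab3 but are other GTPases, and they are reported separately. No measured value entered the choice.

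RNA was taken from whole cerebellum of male C57Bl/6 mice at postnatal day 40. The 4 groups were Snf2h cKO-Nestin mice that ran (cKO runner), Snf2h cKO-Nestin mice kept sedentary (cKO sedentary), control mice that ran (control runner) and control mice kept sedentary (control sedentary). Snf2h, the product of Smarca5, is the ATPase that drives ISWI-type remodelling of chromatin. The Nestin driver acts in neural progenitors, from which both neurons and glia descend. The labels give no further genotype for the controls. Each group had 2 libraries named for lanes A and B, each made from 3 pooled cerebella. The deposited tables hold 1 FPKM value per group (sequenced fragments scaled for transcript length and library size), so no spread between libraries can be given, and whether the libraries of a group are separate pools was not stated.

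In a nerve terminal, synapsins hold vesicles in a cluster, Rab3 and the RIM proteins bring them to the active zone, and Munc13 proteins prepare the SNARE proteins for fusion. Synaptotagmins bind calcium and trigger that fusion, and complexins clamp and assist it. Granule neurons are by far the most numerous neurons of the cerebellum and send parallel fibres to Purkinje cells, which in turn inhibit the cerebellar nuclei. FPKM is a relative scale, and in a whole tissue fewer cells of a type and less RNA per cell cannot be told apart.

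The promoters of 5 genes among those with the largest differences between genotypes are given first, to show the sequence next to which those differences were measured. Each is the 250 bases before the RefSeq start in GRCm38.p6, written 5′ to 3′ on the strand of the gene. Capitals mark any of 4 motifs on either strand: the GC box GGGCGG, the TATA box TATAAA, the E-box CAGATG and the cAMP response element TGACGTCA. Sv2b and Sv2c encode alternative forms of the vesicle glycoprotein SV2, Syt9 a calcium sensor, Rims3 a short RIM protein and Stxbp6 the syntaxin-binding protein amisyn.
Sv2c (chr13:96132578-96132827, minus strand): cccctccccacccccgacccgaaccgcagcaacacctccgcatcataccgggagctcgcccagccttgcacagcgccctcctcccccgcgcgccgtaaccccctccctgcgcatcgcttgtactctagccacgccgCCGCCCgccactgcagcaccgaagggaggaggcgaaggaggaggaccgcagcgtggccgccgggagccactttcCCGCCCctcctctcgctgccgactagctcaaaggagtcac
Stxbp6 (chr12:45074484-45074733, minus strand): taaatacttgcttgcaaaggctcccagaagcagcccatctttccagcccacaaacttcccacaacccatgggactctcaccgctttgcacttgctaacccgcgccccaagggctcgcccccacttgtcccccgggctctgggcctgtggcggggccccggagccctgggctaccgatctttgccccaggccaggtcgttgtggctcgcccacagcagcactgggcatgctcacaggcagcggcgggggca
Sv2b (chr7:75309263-75309512, minus strand): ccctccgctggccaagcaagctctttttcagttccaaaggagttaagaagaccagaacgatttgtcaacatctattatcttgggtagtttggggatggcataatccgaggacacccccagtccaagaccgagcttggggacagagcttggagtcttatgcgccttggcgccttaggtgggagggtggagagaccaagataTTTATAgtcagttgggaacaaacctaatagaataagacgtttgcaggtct
Syt9 (chr7:107370540-107370789, plus strand): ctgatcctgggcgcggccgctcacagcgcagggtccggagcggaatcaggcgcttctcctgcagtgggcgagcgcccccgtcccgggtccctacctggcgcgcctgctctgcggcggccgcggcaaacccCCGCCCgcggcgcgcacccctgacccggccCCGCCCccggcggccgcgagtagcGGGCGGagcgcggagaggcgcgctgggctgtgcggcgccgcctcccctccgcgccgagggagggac
Rims3 (chr4:120854549-120854798, plus strand): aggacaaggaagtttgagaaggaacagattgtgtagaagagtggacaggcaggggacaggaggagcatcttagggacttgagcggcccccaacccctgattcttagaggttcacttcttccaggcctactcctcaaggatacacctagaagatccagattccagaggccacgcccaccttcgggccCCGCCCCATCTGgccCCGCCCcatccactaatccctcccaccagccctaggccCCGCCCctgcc

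These windows differ in base composition. GC content was 70.8% for Sv2c and 65.2% for Stxbp6, which were higher in cKO, and 48.8% for Sv2b, 80.4% for Syt9 and 59.6% for Rims3, which were lower in cKO. The Sv2b window held a TATA box and no GC box, and the Stxbp6 window held none of the 4 motifs. The RefSeq start minus the gene start annotated by GENCODE was -226 bases for Stxbp6 (minus strand) and 62 for Syt9 (plus strand). Most of the Stxbp6 window and part of the Syt9 window therefore lie within the annotated gene, and their letters need not be those of a promoter. In the Rims3 window the E-box adjoins a GC box without sharing a base with it. A promoter window was matched to 59 of the 77 symbols. The GC box stood in 71.2% of those 59, against 32.9% of 27025 mouse promoters of the same length, whose median GC content was 52% against 61.2% for the 59. Among promoters of genes higher in cKO in both genotype comparisons it stood in 81.8% of 11, and among those lower in both in 63.6% of 22. The TATA box stood in 6.78%, the E-box in 10.2% and the cAMP response element in 1.69% of the 59, against 13.0%, 14.5% and 1.62% of all promoters. A match describes letters only.

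The targeted gene was checked first. Smarca5 stood at 5.38 FPKM in cKO runners and 4.94 in cKO sedentary mice, against 13.0 in control runners and 12.6 in control sedentary mice, so both cKO groups carry lower Smarca5 as labelled. All groups held the defining RNAs of cerebellum, such as Gabra6 of granule neurons at 126 (cKO runners), 74.4 (cKO sedentary), 421 (control runners) and 423 (control sedentary) FPKM and Pcp2 of Purkinje cells at 436 (cKO runners), 588 (cKO sedentary), 262 (control runners) and 397 (control sedentary) FPKM. The highest q in each table was between 0.0264 and 0.0631, so nearly all listed loci are called and a missing gene is not read as unchanged. A locus is called where the authors' q is below 0.05, and log2 ratios are of the group FPKM values. For single release genes, every call described below with a log2 ratio had q = 0.000167 in the authors' deposited tables, unless another q is given. That is the smallest q in those tables.

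Release machinery was mostly lower in cKO cerebellum, most of all its active zone scaffolds, while a minority of genes was clearly higher. In runners 20 of the 80 loci were called higher in cKO and 45 lower, which is 25% and 56.3%, against a background of 32.2% higher and 36.2% lower among all 11763 loci. In sedentary mice 26 were higher and 44 lower, which is 32.5% and 55%, against 38.4% and 44.2%. Differences of at least 1.5-fold were fewer: 7 higher and 14 lower in runners, with backgrounds of 16.6% and 8.36%, and 12 higher and 18 lower in sedentary mice, with backgrounds of 22.1% and 16.5%. The median log2 ratio of cKO over control was -0.25 for the 66 release loci listed in runners, against -0.11 for all loci listed. In sedentary mice it was -0.27 for 70 loci, against -0.18, and length-centring left -0.074.

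**Figure D1:**
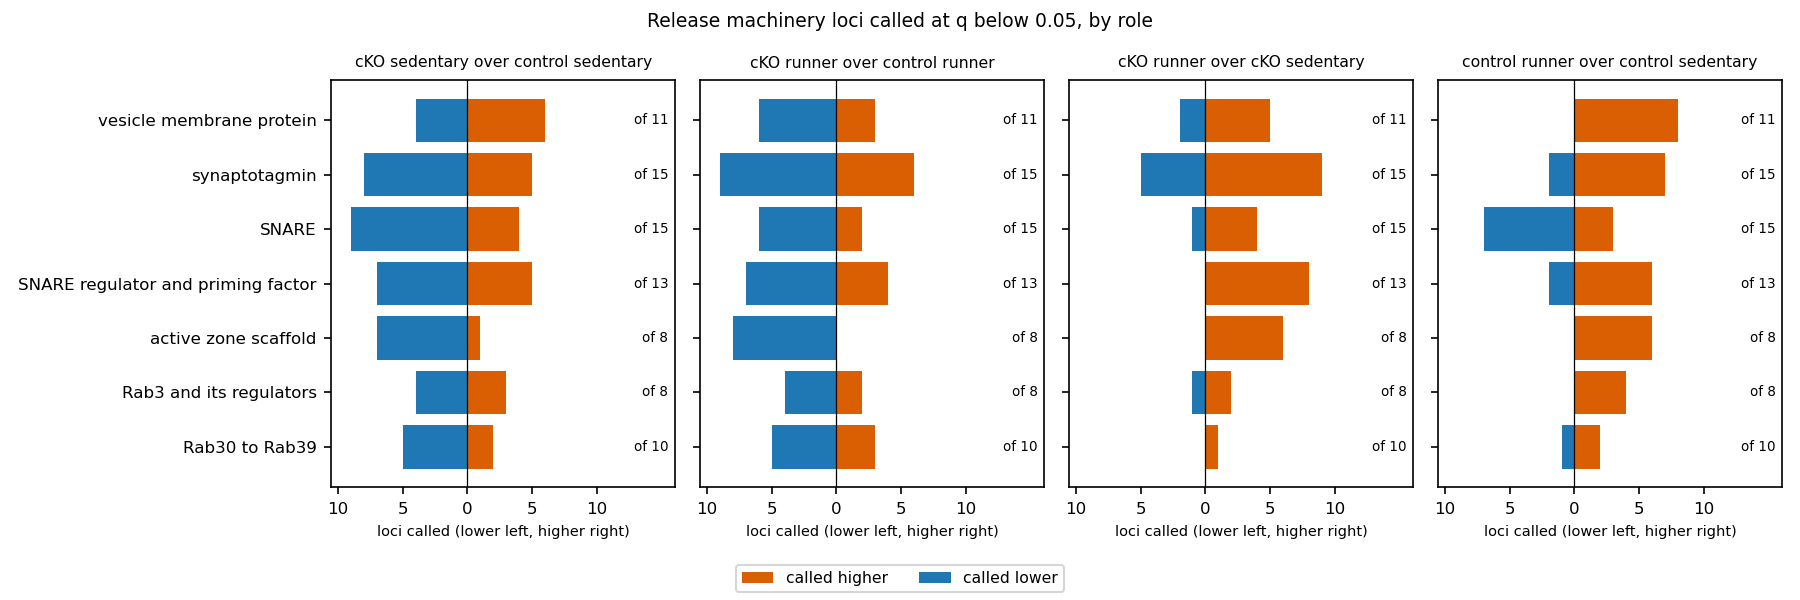
Number of release machinery loci called at q below 0.05 in each pairwise comparison, by role, with loci called higher drawn to the right of 0 and loci called lower to the left; the number at the right edge of each row is the size of the role group. All 8 active zone loci were lower in cKO runners than in control runners, and no active zone locus was lower in runners of either genotype. Among all 11763 loci 36.2% were lower in cKO runners than in control runners. Lower in runners were 13.8% in cKO mice and 18.4% in control mice.

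Transcript length moved with these comparisons. Among called loci with transcripts under 1 kb, 4.26% were higher in control runners than in control sedentary mice, while among those over 6 kb 87.6% were. For cKO sedentary over control sedentary the shares under 1 kb and over 6 kb were 21.5% and 64.6%. The comparisons without the control sedentary group showed a smaller split, 47.3% and 43.4% for cKO runner over control runner and 57.4% and 40.0% for cKO runner over cKO sedentary. Release genes span longest transcripts of 1158 to 20084 bases. Length-centred values were therefore also computed, by subtracting the median of listed loci of like length in 20 bins. In runners they had the other sign for 5 of the 65 release loci called between genotypes and differed by over 1.5 times for another 18. In sedentary mice they had the other sign for 8 of 70 and differed by over 1.5 times for another 33. Between cKO runners and cKO sedentary mice these numbers were 5 and 27 of 44, and between control runners and control sedentary mice 6 and 31 of 48.

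Among vesicle membrane proteins the 3 SV2 genes went separate ways. Sv2b (chromosome 7, 75114894 to 75309262, minus strand, GENCODE M21) stood at 39.1 FPKM in cKO runners and 29.4 in cKO sedentary mice, against 89.4 in control runners and 73.3 in control sedentary mice. Both cKO groups lay below both control groups, with log2 ratios of -1.19 in runners and -1.32 in sedentary mice. Such an order, here and below, compares 1 value per group without any spread. How many of all loci separate in this way was not counted, but a shared direction is common. Of 6642 loci called in both genotype comparisons 49.8% were lower and 44.6% higher in cKO in both. A minor Sv2b locus below 1 FPKM in every group was also lower, by log2 ratios of -0.98 in runners (q = 0.00338) and -1.35 in sedentary mice (q = 0.00375) in the authors' deposited tables. Sv2c (chromosome 13, 95954594 to 96132577, minus strand) had the reverse order, at 17.8 and 22.0 FPKM in cKO runners and cKO sedentary mice, against 10.8 and 6.28 in control runners and control sedentary mice. Its log2 ratio was 0.73 in runners and 1.81 in sedentary mice, the largest increase of any release gene before length-centring. Length-centred, it had 0.87 in runners and 1.43 in sedentary mice, where Stxbp6 had 1.54. Sv2a, the form found at most synapses, was at 151 FPKM in cKO runners and 155 in cKO sedentary mice, against 155 in control runners and 101 in control sedentary mice, so that the control sedentary group alone stood apart.

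The other vesicle proteins differed far less. Synaptophysin (Syp), an abundant protein of the vesicle membrane, had 381 (cKO runners), 373 (cKO sedentary), 389 (control runners) and 358 (control sedentary) FPKM, 1.09 times between the highest and the lowest. It was called in all 4 comparisons, with q = 0.0183 between genotypes in runners and q = 0.00872 between cKO runners and cKO sedentary mice in the authors' deposited tables. Of its exon bases 16.8% are shared with Gm14703, and the strand used in counting was not given. Synapsin Syn1 had 89.9 (cKO runners), 74.9 (cKO sedentary), 84.7 (control runners) and 66.9 (control sedentary) FPKM and was higher in cKO by log2 ratios of 0.086 in runners and 0.16 in sedentary mice (length-centred 0.15 and 0.33). Syn2 had 96.8 (cKO runners), 90.3 (cKO sedentary), 106 (control runners) and 96.2 (control sedentary) FPKM, with log2 ratios of -0.13 in runners and -0.091 in sedentary mice that turned to 0.015 in runners and 0.096 in sedentary mice once length-centred. Syn3, which shares 14.1% of its exon bases with Timp3, had 5.89 FPKM in cKO sedentary mice, against 6.13 in control runners and 4.95 in control sedentary mice. The synaptogyrins are relatives of synaptophysin. Syngr1 had 130 (cKO runners), 128 (cKO sedentary), 153 (control runners) and 121 (control sedentary) FPKM, highest in control runners. Syngr3 had 53.1 FPKM in cKO runners and 40.9 in cKO sedentary mice, against 54.0 in control sedentary mice, and its log2 ratio of -0.40 in sedentary mice was -0.013 once length-centred. Syngr2 was listed in runners alone, at 5.63 FPKM in cKO and 4.34 in control (q = 0.0297 in the authors' deposited table).

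Among the 15 synaptotagmin loci 6 were higher and 9 lower in cKO in runners, and 5 higher and 8 lower in sedentary mice. As shares these were 40% and 60% in runners, against backgrounds of 32.2% and 36.2%. In sedentary mice they were 33.3% and 53.3%, against 38.4% and 44.2%. Syt9 (chromosome 7, 107370728 to 107548656, plus strand), a calcium sensor of fast release in some neurons, had 14.3 and 11.2 FPKM in cKO runners and cKO sedentary mice, against 29.2 and 26.3 in control runners and control sedentary mice. Its log2 ratios were -1.03 in runners and -1.24 in sedentary mice, and both cKO values lay below both control values. Syt1, the main fast sensor of the forebrain, had 119 (cKO runners), 95.6 (cKO sedentary), 151 (control runners) and 143 (control sedentary) FPKM and was lower in cKO by log2 ratios of -0.35 in runners (length-centred -0.18) and -0.58 in sedentary mice. Syt4, a form whose first C2 domain binds calcium poorly, had 76.4 (cKO runners), 65.2 (cKO sedentary), 107 (control runners) and 122 (control sedentary) FPKM, with log2 ratios of -0.49 in runners and -0.91 in sedentary mice. Both cKO groups again lay below both control groups for Syt1 and for Syt4. Syt12 stood at 24.9 (cKO runners), 21.1 (cKO sedentary), 37.9 (control runners) and 33.5 (control sedentary) FPKM, with log2 ratios of -0.60 in runners and -0.67 in sedentary mice, and 17.2% of its exon bases are shared with another gene.

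Other synaptotagmins were higher in cKO. Syt7, the slow high-affinity sensor of asynchronous release, had 56.4 FPKM in cKO runners and 64.6 in cKO sedentary mice, against 45.4 in control runners and 32.4 in control sedentary mice. Its log2 ratio was 0.31 in runners and 0.99 in sedentary mice, and the length-centred values were 0.46 in runners and 0.71 in sedentary mice. Syt11 had 217 (cKO runners), 225 (cKO sedentary), 169 (control runners) and 152 (control sedentary) FPKM, with log2 ratios of 0.36 in runners and 0.57 in sedentary mice. The authors' deposited table gives 0.61 for Syt11 in sedentary mice, the 1 release locus whose deposited log2 differs by over 0.01 from the ratio of its FPKM values. Syt5 was low, at 10.9 and 7.53 FPKM in cKO runners and cKO sedentary mice, against 5.96 and 5.13 in control runners and control sedentary mice. Its log2 ratio was 0.87 in runners and 0.55 in sedentary mice (q = 0.000324 in the authors' deposited table, length-centred 0.91). Syt17 stood at 6.22 (cKO runners), 5.33 (cKO sedentary), 3.98 (control runners) and 3.59 (control sedentary) FPKM, with log2 ratios of 0.65 in runners (q = 0.00132) and 0.57 in sedentary mice (q = 0.00186) in the authors' deposited tables.

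The SNARE proteins form the complex that drives fusion. Snap25, the most abundant release RNA, had 1183 FPKM in cKO runners and 988 in cKO sedentary mice, against 1377 in control runners and 1742 in control sedentary mice. It was lower in cKO by log2 ratios of -0.22 in runners and -0.82 in sedentary mice, and length-centring left -0.052 in runners. The vesicle SNARE Vamp1 moved the other way, with 213 and 187 FPKM in cKO runners and cKO sedentary mice, against 136 and 145 in control runners and control sedentary mice. Its log2 ratios were 0.65 in runners and 0.37 in sedentary mice, and length-centring left 0.10 in sedentary mice. Vamp2 had 252 (cKO runners), 259 (cKO sedentary), 257 (control runners) and 164 (control sedentary) FPKM, so that its log2 ratio of 0.66 in sedentary mice came with a low control sedentary value, and no call was listed in runners. Stx1a, a syntaxin of the presynaptic membrane, had 6.10 and 4.86 FPKM in cKO runners and cKO sedentary mice, against 2.83 and 3.01 in control runners and control sedentary mice, with log2 ratios of 1.11 in runners and 0.69 in sedentary mice (length-centred 1.08).

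SNAREs of other compartments were mostly lower in cKO. Of 15 SNARE loci 2 were higher and 6 lower in runners, and 4 were higher and 9 lower in sedentary mice. As shares these were 13.3% and 40% in runners, against backgrounds of 32.2% and 36.2%. In sedentary mice they were 26.7% and 60%, against 38.4% and 44.2%. The endosomal syntaxins Stx7 and Stx12 had log2 ratios of -0.20 and -0.085 (q = 0.00313 in the authors' deposited table) in runners, and -0.48 and -0.27 in sedentary mice. Stx3, a syntaxin of the plasma membrane, had -0.24 (q = 0.0416 in the authors' deposited table) in runners and -0.50 in sedentary mice. Once length-centred, Stx12 had 0.028 in runners, the other sign, and -0.0074 in sedentary mice. Stx3 then had -0.12 in runners and -0.24 in sedentary mice, and Stx7 had -0.32 in sedentary mice. The Golgi syntaxin Stx5a had -0.52 in runners and -0.80 in sedentary mice, at a locus that joins Nxf1 and other genes. Vamp5 was called higher in cKO sedentary mice at 1.30 FPKM, against 0.685 in control sedentary mice (q = 0.00600 in the authors' deposited table).

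**Figure D2:**
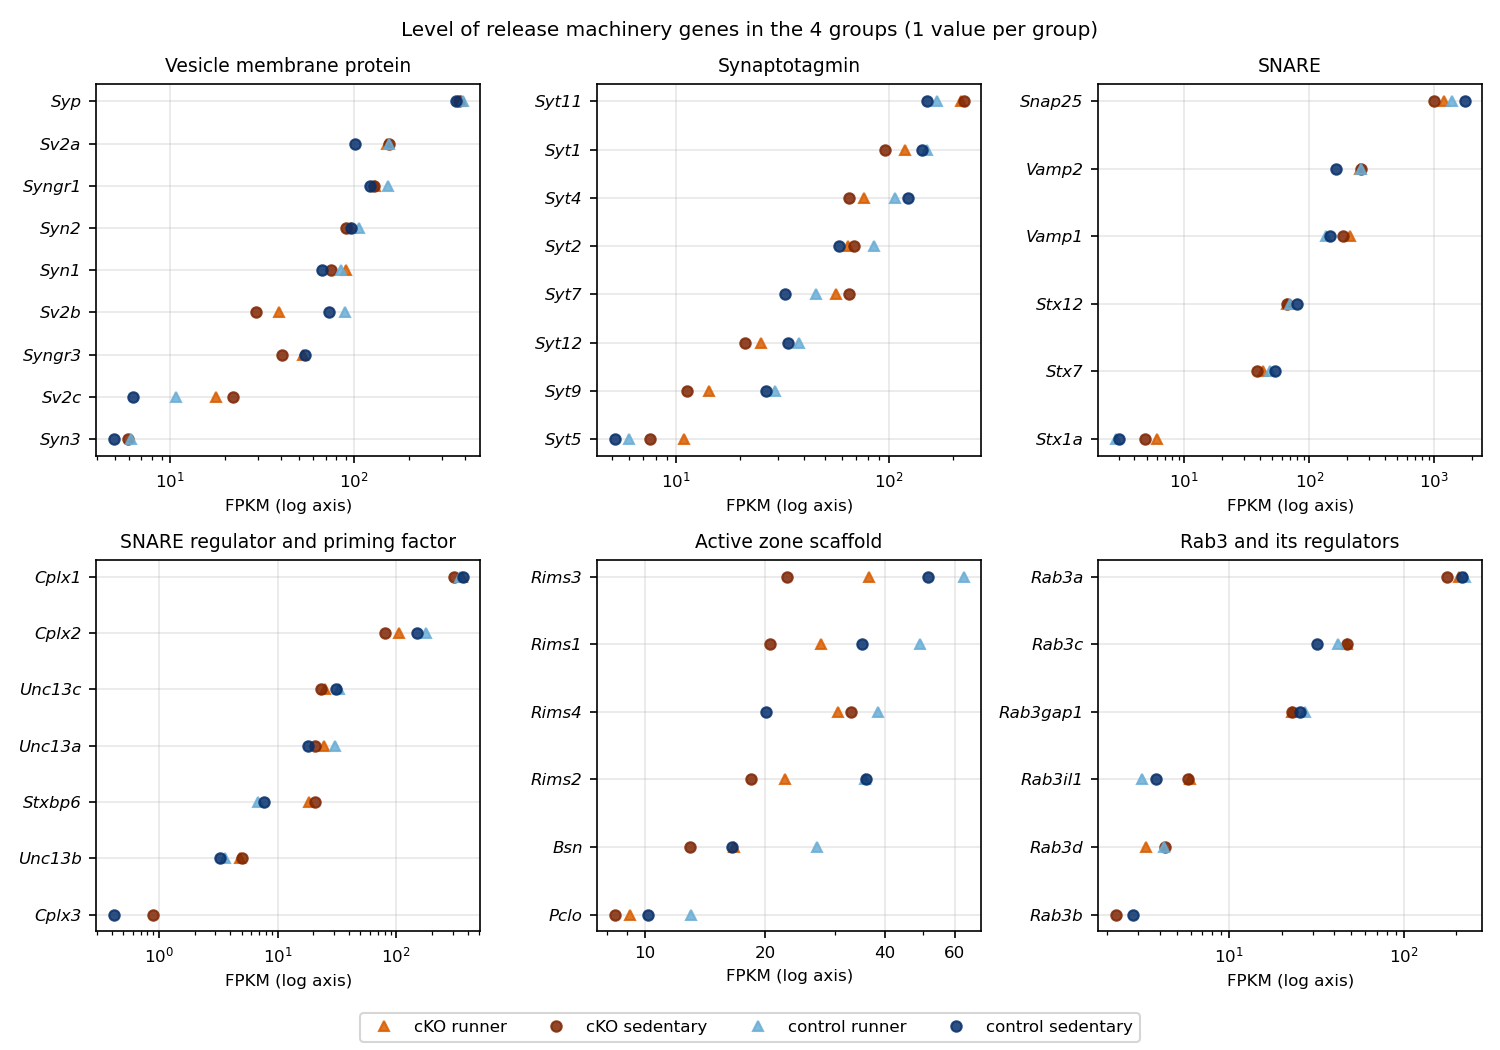
FPKM (log axis) of named release genes in each group, 1 value per group, by role; triangles are runners and circles sedentary mice, orange and brown are cKO, light and dark blue are control. Sv2b, Syt9, Cplx2, Rims1, Rims2 and Rims3 have both cKO values below both control values, and Sv2c, Stxbp6, Syt7, Syt11 and Stx1a have both cKO values above them.

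Regulators of the SNARE complex split likewise. Stxbp6 (chromosome 12, 44852484 to 45074709, minus strand), whose product amisyn binds syntaxin in place of a vesicle SNARE, had 18.4 and 20.8 FPKM in cKO runners and cKO sedentary mice, against 6.89 and 7.73 in control runners and control sedentary mice. The log2 ratios were 1.41 in runners and 1.43 in sedentary mice, and length-centring left them at 1.57 in runners and 1.54 in sedentary mice. Complexin Cplx2 had 105 (cKO runners), 80.3 (cKO sedentary), 178 (control runners) and 149 (control sedentary) FPKM and was lower in cKO by log2 ratios of -0.77 in runners and -0.89 in sedentary mice. Cplx1 had 360 (cKO runners), 307 (cKO sedentary), 347 (control runners) and 363 (control sedentary) FPKM, with a log2 ratio of 0.055 in runners and -0.24 in sedentary mice. Cplx3, a complexin of retina and some brain neurons, was very low, at 0.885 FPKM in cKO sedentary mice and 0.417 in control sedentary mice (q = 0.000622 in the authors' deposited table).

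The tomosyn and Munc13 genes differed in direction. Stxbp5 and Stxbp5l, whose tomosyn products hold back SNARE assembly, had log2 ratios of -0.31 and -0.44 in runners (length-centred -0.18 and -0.29) and -0.38 and -0.55 in sedentary mice (length-centred -0.70 for Stxbp5). Unc13c, the Munc13 form known from cerebellar granule neurons, had 24.9 (cKO runners), 23.4 (cKO sedentary), 32.8 (control runners) and 31.2 (control sedentary) FPKM, with log2 ratios of -0.40 in runners and -0.42 in sedentary mice (length-centred -0.74). Unc13b was low but higher in cKO, at 4.87 (cKO runners), 5.02 (cKO sedentary), 3.61 (control runners) and 3.30 (control sedentary) FPKM, with log2 ratios of 0.43 (q = 0.00263 in the authors' deposited table) in runners and 0.60 in sedentary mice (length-centred 0.23). Unc13a, the main Munc13 of most synapses, had 24.5 (cKO runners), 20.8 (cKO sedentary), 30.5 (control runners) and 18.1 (control sedentary) FPKM and was highest in control runners and lowest in control sedentary mice. Unc13d, best known from immune cells, stood at 1.501 (cKO runners), 1.09 (cKO sedentary), 2.08 (control runners) and 1.96 (control sedentary) FPKM, with log2 ratios of -0.47 in runners (q = 0.00459 in the authors' deposited table) and -0.85 in sedentary mice.

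Active zone scaffolds were the role group with the most uniform direction. Of the 8 loci 0 were higher and 8 lower in cKO runners, and 1 was higher and 7 were lower in cKO sedentary mice. As shares these were 0% and 100% in runners, against backgrounds of 32.2% and 36.2%. In sedentary mice they were 12.5% and 87.5%, against 38.4% and 44.2%. Rims3 (chromosome 4, 120854816 to 120896579, plus strand), a short RIM protein, had 36.6 and 22.8 FPKM in cKO runners and cKO sedentary mice, against 63.1 and 51.5 in control runners and control sedentary mice. Its log2 ratios were -0.79 in runners and -1.18 in sedentary mice, and a second Rims3 locus at 22.3 (cKO runners), 15.1 (cKO sedentary), 33.6 (control runners) and 31.1 (control sedentary) FPKM had -0.59 in runners (q = 0.0153 in the authors' deposited table) and -1.04 in sedentary mice. Rims1, a full-length RIM that tethers calcium channels and vesicles, had 27.7 (cKO runners), 20.6 (cKO sedentary), 48.9 (control runners) and 35.0 (control sedentary) FPKM at its main locus, with log2 ratios of -0.82 in runners and -0.77 in sedentary mice. Its other locus, at 24.3 (cKO runners), 17.9 (cKO sedentary), 45.2 (control runners) and 30.9 (control sedentary) FPKM, had -0.90 in runners and -0.79 in sedentary mice. Rims2 had 22.5 (cKO runners), 18.4 (cKO sedentary), 35.7 (control runners) and 35.8 (control sedentary) FPKM, with log2 ratios of -0.67 in runners and -0.96 in sedentary mice. For these 3 genes no cKO value reached a control value of the same locus.

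The giant scaffolds bassoon (Bsn) and piccolo (Pclo) differed by smaller ratios in sedentary mice than Rims1, Rims2 and Rims3. Bsn had 16.7 FPKM in cKO runners and 12.9 in cKO sedentary mice, against 27.0 in control runners and 16.5 in control sedentary mice, with log2 ratios of -0.69 in runners and -0.35 in sedentary mice. Pclo had 9.14 (cKO runners), 8.39 (cKO sedentary), 13.0 (control runners) and 10.2 (control sedentary) FPKM, with log2 ratios of -0.51 in runners and -0.28 in sedentary mice. Rims4, another short RIM, was the exception, at 30.5 and 33.0 FPKM in cKO runners and cKO sedentary mice, against 38.5 and 20.2 in control runners and control sedentary mice. Its log2 ratio was -0.33 in runners and 0.71 in sedentary mice. With length-centring all 8 loci in runners lay between -0.77 and -0.17, while in sedentary mice the 7 lower loci lay between -1.47 and -0.66 and Rims4 had 0.53. Summed over the 8 loci, active zone RNA was 190 FPKM in cKO runners and 149 in cKO sedentary mice, against 305 in control runners and 231 in control sedentary mice.

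Rab3 GTPases, which mark vesicles ready to dock, and their regulators showed no common direction. Rab3a, the most abundant, had 206 (cKO runners), 178 (cKO sedentary), 223 (control runners) and 215 (control sedentary) FPKM, with log2 ratios of -0.11 in runners and -0.28 in sedentary mice. Length-centring left -0.040 in runners and turned the value in sedentary mice to 0.18. Rab3c had 47.2 (cKO runners), 47.2 (cKO sedentary), 42.1 (control runners) and 31.8 (control sedentary) FPKM and was higher in cKO by log2 ratios of 0.17 in runners and 0.57 in sedentary mice (length-centred 0.30 and 0.24). Rab3il1 was also higher, at 5.93 (cKO runners), 5.82 (cKO sedentary), 3.15 (control runners) and 3.79 (control sedentary) FPKM with log2 ratios of 0.91 in runners and 0.62 in sedentary mice, while Rab3ip, at a locus joined to Myrfl, was lower, with log2 ratios of -0.62 in runners and -0.998 in sedentary mice. Both encode Rab3-interacting proteins that act as exchange factors for Rab8. Rab3d and Rab3b were low. Rab3d had 3.32 FPKM in cKO runners and 4.30 in cKO sedentary mice, against 4.25 in control runners (log2 ratio in runners -0.35, length-centred -0.21, q = 0.00727 in the authors' deposited table). Rab3b had 2.24 FPKM in cKO sedentary mice and 2.81 in control sedentary mice (q = 0.0447 in the authors' deposited table). Rab3gap1, part of the Rab3 GTPase-activating complex, had log2 ratios of -0.25 in runners and -0.14 in sedentary mice, and length-centring turned the value in sedentary mice to 0.0029. Rab3gap2, its partner, was at 20.9 FPKM in cKO sedentary mice, against 19.9 in control runners and 15.96 in control sedentary mice, and shares 19.3% of its exon bases with other genes. The 10 loci from Rab30 to Rab39 counted 3 higher and 5 lower in cKO runners and 2 higher and 5 lower in cKO sedentary mice. As shares these were 30% and 50% in runners, against backgrounds of 32.2% and 36.2%. In sedentary mice they were 20% and 50%, against 38.4% and 44.2%. Rab33a, a Golgi GTPase, had the lowest log2 ratio among these 10 loci, -0.70 in runners and -0.95 in sedentary mice (length-centred -0.44).

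**Figure D3:**
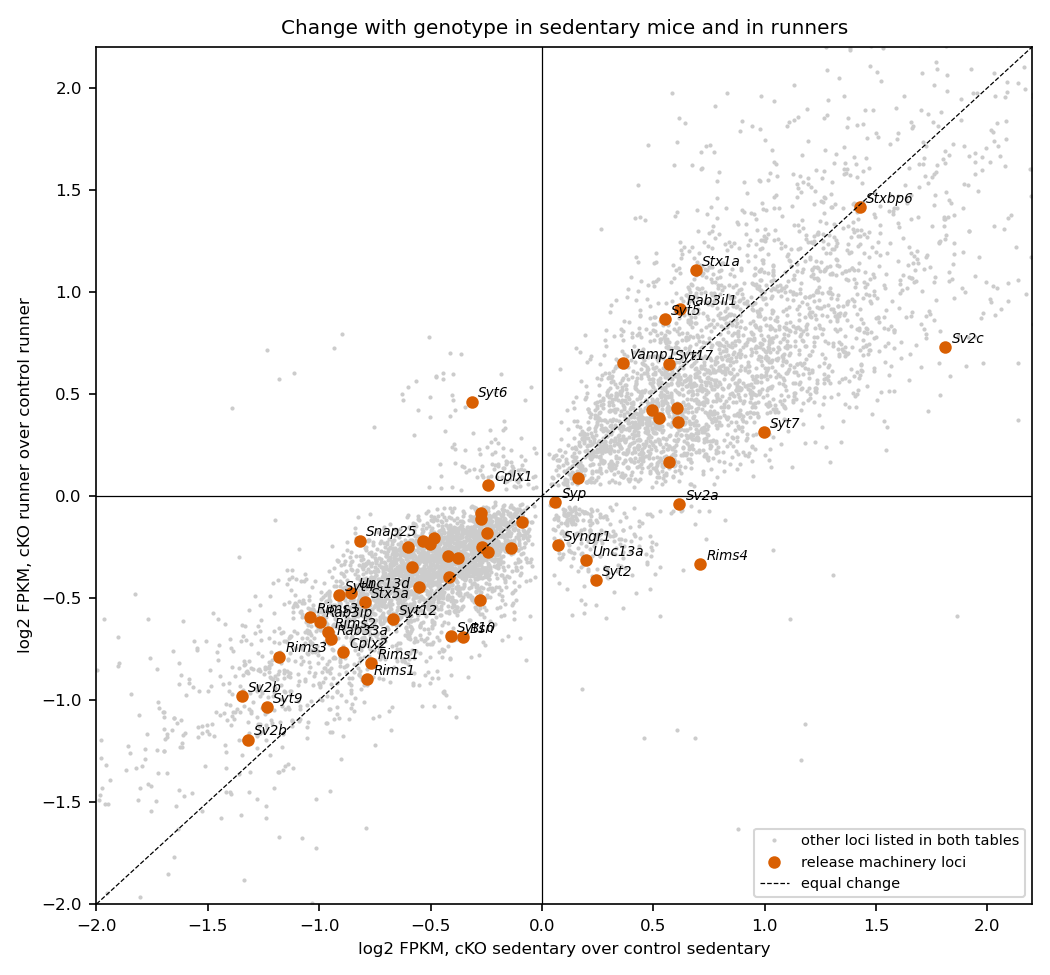
log2 ratio of cKO over control in runners (vertical axis) against sedentary mice (horizontal axis) for loci listed in both genotype tables; orange points are release machinery, grey points other loci, and the dashed line marks an equal change. Most release genes lie to the lower left of the origin, Sv2c lies far below the line, and the 6 points to the lower right of the origin were lower in cKO runners and higher in cKO sedentary mice.

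More release RNAs were higher than lower in runners, in both genotypes. In cKO mice 35 loci were higher and 9 lower in runners, which is 43.8% and 11.3%, against backgrounds of 17.7% and 13.8%. In control mice 36 were higher and 12 lower in runners, which is 45% and 15%, against 22.1% and 18.4%. The differences were small: at 1.5-fold or more 1 locus was higher and 0 lower in cKO runners, with backgrounds of 2.5% and 2.12%, and 6 were higher and 0 lower in control runners, with backgrounds of 2.87% and 1.77%. The median log2 ratio of runner over sedentary was 0.26 for the 44 release loci listed in cKO mice and 0.17 for the 48 listed in control mice, against 0.10 and 0.11 for all loci listed in those tables. With length-centring these medians were 0.15 in cKO mice and 0.067 in control mice.

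In cKO mice the genes that were higher in runners included active zone and priming genes. Rims3 showed the largest increase, at 36.6 FPKM in cKO runners and 22.8 in cKO sedentary mice (log2 ratio 0.68), and was the 1 locus past 1.5-fold. Syt5 followed with a log2 ratio of 0.53, then Unc13d with 0.47 (q = 0.0118 in the authors' deposited table) and the Rims1 loci with 0.44 (q = 0.00159 in the authors' deposited table) and 0.43. Of the active zone loci 6 of 8 were higher and 0 lower, and of the regulators of the SNARE complex 8 of 13 were higher and 0 lower. The backgrounds were 17.7% higher and 13.8% lower. Sv2b (0.41), Cplx2 (0.38), Syt9 (0.35) and Syt1 (0.32) were also higher. Length-centring left 0.35 for Syt5, 0.25 for Cplx2, 0.19 for Syt9 and 0.18 for Syt1. Sv2b, Cplx2, Syt9 and Syt1 were lower in cKO than in control mice in both genotype comparisons. The 9 loci that were lower in cKO runners included Syt14 (2.91 FPKM in cKO runners and 4.17 in cKO sedentary mice, log2 ratio -0.52, q = 0.0107 in the authors' deposited table). Syt10 was lower by a log2 ratio of -0.48 (q = 0.000475 in the authors' deposited table) and Rab3d by -0.37 (q = 0.00447 in the authors' deposited table). Sv2c (-0.31) and Syt7 (-0.20), which were higher in cKO than in control mice, were lower in cKO runners than in cKO sedentary mice, with length-centred values of -0.18 and -0.082.

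In control mice the largest increases with running were in other genes. Rims4 had 38.5 FPKM in control runners and 20.2 in control sedentary mice (log2 ratio 0.93, length-centred 0.76). Sv2c followed at 0.78, Unc13a at 0.75, Bsn at 0.71, Vamp2 at 0.65 and Sv2a at 0.62, which together make the 6 loci past 1.5-fold. Their length-centred values were 0.49, 0.43, 0.38, 0.88 and 0.48. Of 15 SNARE loci 3 were higher and 7 lower in control runners, against backgrounds of 22.1% and 18.4%. Among the 7, length-centring turned Vamp4 (q = 0.0157 in the authors' deposited table) to 0.046 and left -0.035 for Stx12 and -0.052 for Stx7. Snap25, Stx2, Vamp1 and the joined Stx5a locus then lay between -0.51 and -0.31. Snap25 had 1377 FPKM in control runners and 1742 in control sedentary mice (log2 ratio -0.34, length-centred -0.51). Stx2 was lower by a log2 ratio of -0.47 (q = 0.00716), Syt6 by -0.41 (q = 0.0201) and Rab36 by -0.37 (q = 0.0112) in the authors' deposited table. Syt4 was lower by -0.19.

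**Figure D4:**
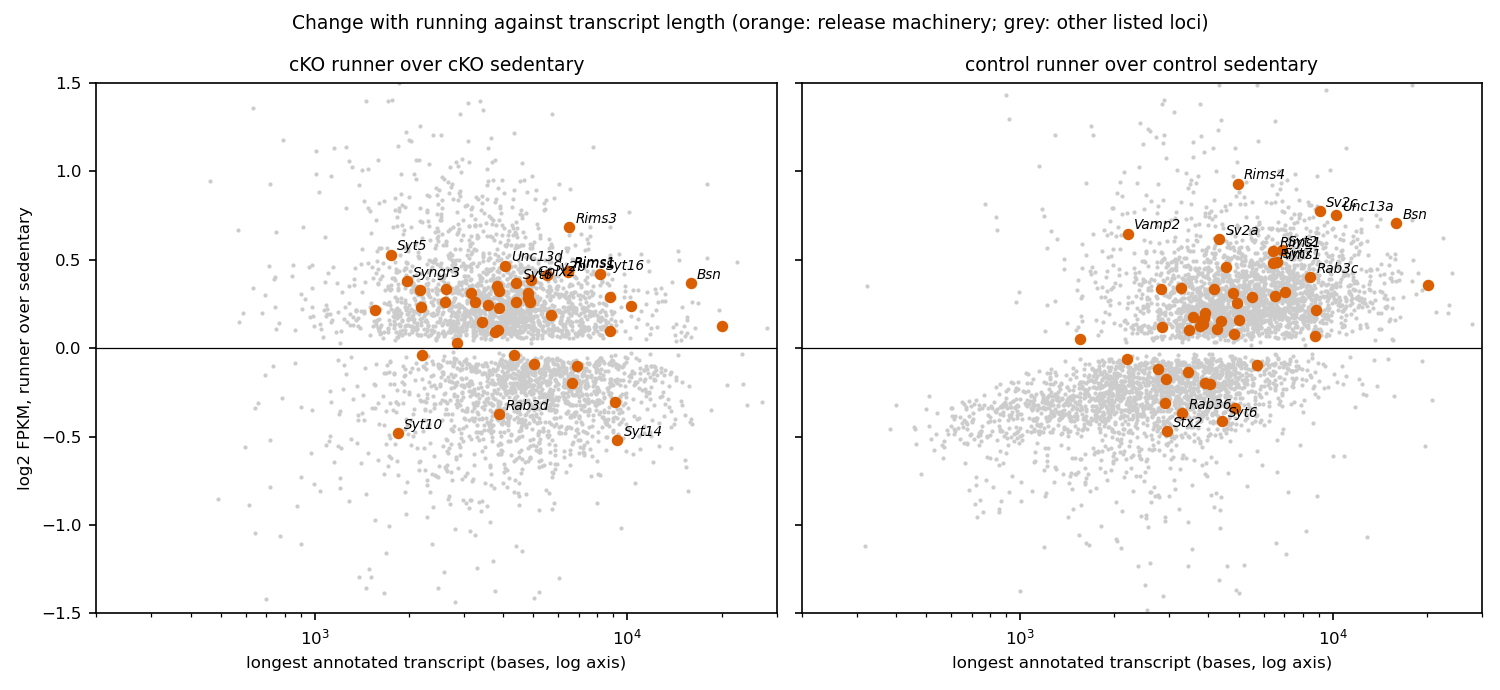
log2 ratio of runner over sedentary (vertical axis) against the longest annotated transcript (horizontal log axis, bases) in cKO mice at left and control mice at right; orange points are release machinery and grey points other listed loci. In control mice short transcripts lie mostly below 0 and long ones above it, and Rims4, Sv2c, Unc13a, Bsn, Vamp2 and Sv2a are the release genes highest above 0.

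The running comparisons rest on separate groups of mice, and 32 release loci were called in both. Of these 20 (62.5%) were higher in runners of both genotypes and 0 lower in both, against 35.7% and 14.4% of the 2082 loci called in both. The other 12 (37.5%) were called in opposite directions, against 49.9%. Vamp2 (-0.039, q = 0.0136), Sv2a (-0.036, q = 0.0137) and Syt11 (-0.091) were lower in cKO runners by the log2 values of the authors' deposited table and higher in control runners. Sv2c, Syt7 and Syt2 had the same pattern, with log2 ratios of -0.31, -0.20 and -0.099 in cKO mice against 0.78, 0.48 and 0.55 in control mice. Snap25 and Syt4 had the converse pattern, with log2 ratios of 0.26 and 0.23 in cKO mice against -0.34 and -0.19 in control mice. Syt6 had 0.37 (q = 0.0110) in cKO mice and -0.41 in control mice in the authors' deposited tables.

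The genotype comparisons also share no mice, and 57 release loci were called in both. There 14 (24.6%) were higher and 35 (61.4%) lower in cKO in both, against 44.6% and 49.8% of 6642 loci called in both. The other 8 (14.0%) had opposite directions, against 5.53%. Sv2a, Syngr1, Syp, Syt2, Unc13a and Rims4 were lower in cKO runners and higher in cKO sedentary mice, while Syt6 and Cplx1 were higher in cKO runners and lower in cKO sedentary mice. Syt2, a fast calcium sensor of hindbrain synapses, had 64.2 and 68.8 FPKM in cKO runners and cKO sedentary mice, against 85.4 and 58.2 in control runners and control sedentary mice. Its log2 ratio was -0.41 in runners and 0.24 in sedentary mice. Syt6 had 6.81 (cKO runners), 5.28 (cKO sedentary), 4.94 (control runners) and 6.57 (control sedentary) FPKM, with log2 ratios of 0.46 (q = 0.00828) in runners and -0.32 (q = 0.0319) in sedentary mice in the authors' deposited tables. In the authors' deposited table for runners the log2 values of Sv2a and Syp were -0.038 (q = 0.00772) and -0.028 (q = 0.0183), and both turned positive, 0.039 and 0.098, once length-centred. Syt2 and Unc13a turned negative in sedentary mice, at -0.048 and -0.18, and both values of Cplx1 changed sign, to -0.037 in runners and 0.15 in sedentary mice. Length-centring left the signs of Syngr1 (-0.16 in runners, 0.24 in sedentary mice), Rims4 (-0.17 and 0.53) and Syt6 (0.62 and -0.17) as they were.

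Whether the genotype effect differed between runners and sedentary mice was tested per locus with a two-sided z test on the deposited fold changes, with Benjamini-Hochberg adjustment over the 6751 loci listed in both tables. Of 57 release loci tested 28 passed, 16 with a higher and 12 with a lower log2 ratio in runners, against backgrounds of 13.5% and 14.5%. Sv2c showed the largest difference, -1.08 (SE 0.093), and was the 1 locus to pass against a difference of 1.5-fold. Length-centring left it at -0.56, less than 1.5-fold, and Snap25 (0.95), Rims3 at its main locus (0.81) and Syt6 (0.79), among others, then lay further from 0. Rims4 followed at -1.04 (SE 0.17), then Syt6 at 0.78 (SE 0.28), Syt7 at -0.68 (SE 0.038) and Sv2a at -0.66 (SE 0.027), all of which passed. Length-centred, these were -0.70 for Rims4, 0.79 for Syt6, -0.25 for Syt7 and -0.72 for Sv2a. The standard errors come from the deposited statistics of groups with 2 libraries each, and a small one need not reflect variation between mice. For Rims1 the differences of -0.053 (SE 0.12) and -0.11 (SE 0.22) did not pass, and neither did that of Stxbp6, -0.014 (SE 0.18). The length-centred difference kept its sign for 20 of the 28 and had the other sign for 8, which were Syt11, Cplx1, Unc13a, Bsn, Pclo, Rab3a, Rab3c and Rab37. With the standard error taken from the deposited p, which cannot fall below its floor, 9 passed: Sv2a, Syngr1, Syp, Syt2, Syt6, Snap25, Cplx1, Unc13a and Rims4. Sv2c did not pass in that form.

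FPKM is scaled to length, so related genes were set against each other within a group. These ratios were not length-centred, and the length trend between groups described above remains in them. Longest transcripts differ within pairs, such as 9101 bases for Sv2c and 5524 for Sv2b. Differences in a ratio between groups, above all against control sedentary mice, were not separated from that trend. Sv2c stood at 0.456 of Sv2b in cKO runners and 0.751 in cKO sedentary mice, against 0.120 in control runners and 0.0857 in control sedentary mice. Syt7 exceeded Syt9 by 3.95 times in cKO runners and 5.79 times in cKO sedentary mice, against 1.55 and 1.23 times in control runners and control sedentary mice. Cplx1 over Cplx2 was 3.44 and 3.82 in cKO runners and cKO sedentary mice, against 1.95 and 2.43 in control runners and control sedentary mice. Syt11 over Syt4 was 2.85 and 3.45 in cKO runners and cKO sedentary mice, against 1.58 and 1.24 in control runners and control sedentary mice. For these 4 pairs the cKO ratios lay above both control ratios. Rims4 over Rims3 was 0.834 and 1.45 in cKO runners and cKO sedentary mice, against 0.609 and 0.392 in control runners and control sedentary mice, and it was above 1 in cKO sedentary mice alone. Vamp1 over Vamp2 did not separate the genotypes, at 0.845 and 0.721 in cKO runners and cKO sedentary mice, against 0.528 and 0.885 in control runners and control sedentary mice.

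**Figure D5:**
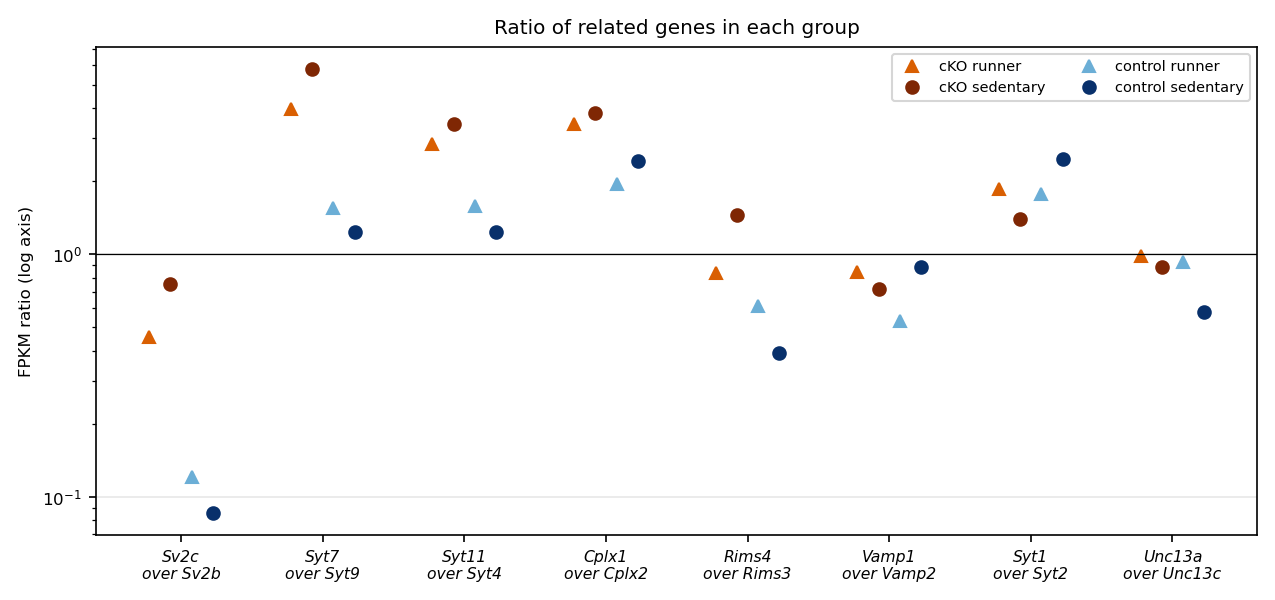
Ratio of the FPKM of related release genes in each group (log axis), 1 value per group; triangles are runners, circles sedentary mice, and the horizontal line marks equal levels. Sv2c over Sv2b, Syt7 over Syt9, Syt11 over Syt4, Cplx1 over Cplx2 and Rims4 over Rims3 are higher in both cKO groups than in both control groups.

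Across the 58 release loci with a value in all 4 groups, summed FPKM was 4897 in cKO runners and 4381 in cKO sedentary mice, against 5471 in control runners and 5383 in control sedentary mice. Snap25 alone made up 1183 (cKO runners), 988 (cKO sedentary), 1377 (control runners) and 1742 (control sedentary) FPKM of these sums. The order of the sums therefore rests in large part on 1 gene and is not read as a trait of the set. The control runner group held the highest value for 29 of the 58 (50%), against 23.9% of the 7303 loci with 4 values. The cKO sedentary group held the lowest value for 33 (56.9%), against 38.8%. Loci with 4 values are those called most often, so these shares describe them alone.

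Other genes of the vesicle cycle were taken from a list of 81, of which 79 stood in the tables. Against controls 16 were higher and 44 lower in cKO runners, with backgrounds among all 11763 loci of 32.2% and 36.2%. In cKO sedentary mice 17 were higher and 52 lower, with backgrounds of 38.4% and 44.2%. In runners 42 were higher and 6 lower in cKO mice, with backgrounds of 17.7% and 13.8%. In control mice 32 were higher and 32 lower in runners, with backgrounds of 22.1% and 18.4%. The same backgrounds apply to the smaller groups below, whose counts were not tested. The proton pump that fills vesicles had 1 higher and 10 lower of 15 in cKO runners, and 0 higher and 14 lower in cKO sedentary mice. Of 22 endocytosis and recycling genes 5 were higher and 10 lower in cKO runners and 4 higher and 14 lower in cKO sedentary mice. The SNAP proteins and the disassembly ATPase had 1 higher and 3 lower of 6 listed in cKO runners, and 0 higher and 5 lower in cKO sedentary mice. Of 21 listed active zone and priming genes 3 were higher and 13 lower in cKO runners, and 7 higher and 12 lower in cKO sedentary mice. Among them Cadps2, a priming factor for dense-core vesicles, had 36.3 (cKO runners), 25.6 (cKO sedentary), 76.1 (control runners) and 68.8 (control sedentary) FPKM, while its relative Cadps had 71.5 (cKO runners), 76.2 (cKO sedentary), 53.1 (control runners) and 47.2 (control sedentary) FPKM. Of 15 vesicle membrane genes 6 were higher and 8 lower in cKO runners and 6 higher and 7 lower in cKO sedentary mice. The transporter that loads glutamate in granule neurons, Slc17a7, had 84.1 (cKO runners), 57.2 (cKO sedentary), 183 (control runners) and 137 (control sedentary) FPKM, and the one that loads GABA and glycine, Slc32a1, had 107 (cKO runners), 124 (cKO sedentary), 74.2 (control runners) and 66.7 (control sedentary) FPKM.

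Markers of cell types moved with these groups, and their part in the release gene differences was not tested. All 15 granule neuron markers were lower in cKO in both genotype comparisons and higher in cKO runners than in cKO sedentary mice, with a summed level of 896 (cKO runners), 585 (cKO sedentary), 2284 (control runners) and 2175 (control sedentary) FPKM. That is the direction of Sv2b, Syt9, Cplx2, Rims1 and Rims3. Of 12 Purkinje cell markers 10 were higher and 0 lower in cKO runners, 11 higher and 1 lower in cKO sedentary mice, and 0 higher and 12 lower in cKO runners against cKO sedentary mice, with a summed level of 3577 (cKO runners), 4896 (cKO sedentary), 2727 (control runners) and 3070 (control sedentary) FPKM. Sv2c and Syt7 went the same way in those 3 comparisons. In control runners against control sedentary mice 6 Purkinje cell markers were higher and 5 lower, their sum was lower, and Sv2c and Syt7 were higher. Of 14 listed markers of hindbrain, midbrain and cerebellar nuclei 13 were higher in cKO runners and 12 in cKO sedentary mice, and 0 were lower in either. Their summed level was 159 (cKO runners), 122 (cKO sedentary), 38.0 (control runners) and 53.0 (control sedentary) FPKM, and the dopamine transporter Slc6a3 had 8.03 and 1.78 FPKM in cKO runners and cKO sedentary mice, against values near 0, 0.0508 and 0.0350, in control runners and control sedentary mice. Inhibitory interneuron and Golgi cell markers (10) were mixed, with 6 higher and 3 lower in cKO runners and 5 higher and 5 lower in cKO sedentary mice, as were the 4 markers of unipolar brush cells, with 2 higher and 1 lower in both.

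Glial and other markers were also mostly higher in cKO. Of 10 oligodendrocyte markers 9 were higher and 1 lower in both genotype comparisons, of 9 astrocyte and Bergmann glia markers 6 were higher and 3 lower in both, and of 8 listed microglia markers 7 were higher and 0 lower in both. The 4 choroid plexus markers with a value in all groups summed to 644 (cKO runners), 677 (cKO sedentary), 541 (control runners) and 87.2 (control sedentary) FPKM. Most of each sum was Ttr, at 610 (cKO runners), 640 (cKO sedentary), 518 (control runners) and 77.7 (control sedentary) FPKM. By these sums the control sedentary group alone was low. Of the 6 markers 3 were higher and 0 lower in cKO runners, and 5 were higher and 1 lower in cKO sedentary mice. The lower one was Otx2, at 6.21 FPKM in cKO sedentary mice and 7.97 in control sedentary mice. The control sedentary group is also the one that stands apart for Sv2a and Vamp2. Of the 6 genes of chromaffin and neuroendocrine secretion 3 were higher and 3 lower in cKO runners, and 1 was higher and 3 lower in cKO sedentary mice.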

How the data were processed

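Per the labels, polyadenylated RNA from cerebellum was read from both ends for 100 bases. Cuffdiff, Cufflinks 2.1.1, TopHat, TopHat2 2.0.8b and the mm10 build are in the submitters' processing notes with no role given, and the labels do not say whether counting used strand. Read depth per library is unknown, and counting intervals are therefore not given. Per the file headers the deposited tables are Cuffdiff output, with 1 FPKM per group for which the authors combined the libraries. All 13151 FPKM values that could be compared between tables were identical. The log2 fold change, the test statistic (a score) and the p-value and q-value are the authors' values, per the file headers.

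Scripts in Python 3.11.15 (pandas 2.3.3, numpy 2.4.6, scipy 1.17.1, matplotlib 3.10.9) selected loci by symbol, joined the tables by locus and computed log2 ratios of group FPKM with no pseudocount. A call is an authors' q below 0.05. The z test of the genotype difference takes each standard error as the deposited fold change over its statistic. It was run on simulated data whose noise was drawn from those same standard errors. That run checked the arithmetic and could not show whether the standard errors are right. Because only group values are used, p-values may measure technical spread between lanes. Length is that of the longest GENCODE M21 transcript, known for 11225 loci and all 80 release loci. Promoters are from RefSeq, GRCm38.p6, the first window per gene.

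Genes were named by rule: core genes of each role, the 5 largest increases and 5 largest decreases per comparison with an FPKM of at least 1 in a group and 1 symbol per locus, and genes called in opposite directions in the genotype comparisons or passing the z test. Some genes that the rule names are not reported here. Others named for their role were chosen after their values were seen. Members and lists were chosen with earlier results of these data known. Alternatives were a 1.5-fold minimum, a q of 0.01, an FPKM minimum of 1, pseudocounts of 0.1 and 1, centring on the median or by length, and leaving out joined loci or Rab30 to Rab39.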

Additional observations from a re-analysis of the deposited data

Results flagged for a closer look

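The genotype effect (cKO over control, log2) differed between runners and sedentary mice for release loci by the z test of the difference described above, and each value here is the effect in runners minus that in sedentary mice. The differences below 0, a lower ratio in runners, were -1.08 for Sv2c, -1.04 for Rims4, -0.68 for Syt7, -0.66 for Sv2a, -0.65 for Syt2, -0.51 for Unc13a, -0.40 for Rab3c, -0.34 for Bsn, -0.31 for Syngr1, -0.25 for Syt11, -0.23 for Pclo and -0.088 for Syp. The differences above 0 were 0.78 for Syt6, 0.60 for Snap25, 0.42 for Syt4, 0.39 for Rims3 at its main locus, 0.35 for Rab37, 0.30 for Cplx1, 0.29 for Rims2 and 0.29 for Vamp1. Smaller ones above 0 were 0.28 for Stx7, 0.28 for Stx5a, 0.23 for Syt1, 0.19 for Stx12, 0.16 for Rab3a, 0.13 for Cplx2 and 0.13 for Sv2b at its main locus. These values mix the running response of both genotypes, and the length trend of the comparisons that use the control sedentary group moves with them.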

How the results depend on the processing

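No paired analysis was possible because the tables give 1 value per group, and leaving out a library was not run for the same reason. Requiring 1.5-fold left 30 called loci (12 higher, 18 lower) for cKO sedentary over control sedentary and 21 (7 higher, 14 lower) for cKO runner over control runner. It left 1 (1 higher, 0 lower) for cKO runner over cKO sedentary and 6 (6 higher, 0 lower) for control runner over control sedentary, since fewer loci can pass it. Of the 28 differences between genotype effects, 1 passed against 1.5-fold and 9 with the standard error from the deposited p. The test of running fold changes passed 24 of 32 release loci. The share passing among all 2078 loci tested was not recorded, so this count is not read as a trait of release loci. Length-centring moved the median log2 ratio to -0.074 for cKO sedentary over control sedentary, 0.15 for cKO runner over cKO sedentary and 0.067 for control runner over control sedentary.

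Some named genes changed sign, and the cause was not tested. Length-centred values for cKO sedentary over control sedentary were 0.096 for Syn2, -0.048 for Syt2, 0.15 for Cplx1, -0.18 for Unc13a, 0.18 for Rab3a and 0.0029 for Rab3gap1. For cKO runner over control runner they were 0.039 for Sv2a, 0.015 for Syn2, 0.098 for Syp, 0.028 for Stx12 and -0.037 for Cplx1. For cKO runner over cKO sedentary they were -0.062 for Syn2, -0.12 for Syp, 0.016 for Syt2 and -0.00102 for Stx7. For control runner over control sedentary they were -0.086 for Syt1, -0.061 for Syt11, 0.17 for Cplx1, -0.22 for Unc13c and -0.074 for Stxbp5. Centring on the median of listed loci gave 0.086 for Syn2 (sedentary genotype), 0.074 for Sv2a and 0.084 for Syp (runner genotype). It gave -0.00471 for Syn2, -0.074 for Syp and -0.0102 for Unc13c (running, cKO), and -0.0271 for Syt1, -0.037 for Unc13c and -0.055 for Rab3a (running, control). In control mice the authors' deposited q for running was 0.000622 for Unc13c and 0.0145 for Rab3a. A q of 0.01 ended 13 of 151 named calls, and pseudocounts of 0.1 and 1 ended or reversed none of the 151. Counts stayed within 1.5 times when loci below 1 FPKM, joined loci or Rab30 to Rab39 were left out.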
